A study of Homo sapiens with 2 samples.

Results

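The Hippo pathway core comprised 10 genes, NF2, SAV1, STK3, STK4, MOB1A, MOB1B, LATS1, LATS2, YAP1 and WWTR1, found by symbol among the 12014 genes listed in the files. All 10 were listed, and all 10 passed a mean of at least 1 FPKM over both libraries, as did 10708 genes in all. FPKM counts fragments scaled to transcript length and to the mapped fragments of the library. The group of genes was chosen by the pathway of SAV1, which was selected on its FPKM in these same libraries, so the differences below are descriptions.

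RNA-seq was performed on ACHN cells, an established human renal cell carcinoma line, in which a lentiviral shRNA either targeted KIAA1429 (shKIAA1429) or served as negative control (shNC), with stable lines selected in puromycin. KIAA1429, also called VIRMA, is a subunit of the complex that writes m6A on mRNA. The GEO labels call the cells knockouts, the paper describes a knockdown, and its text does not say which of its KIAA1429 shRNAs was sequenced. With 1 library per group no difference has a replicate check, no error can be given and no p-value was computed. A gene in fewer cells and less RNA per cell cannot be told apart in such bulk libraries.

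VIRMA, the target of the shRNA, was at 3.92 FPKM (shNC) and 3.22 FPKM (shKIAA1429), 82.1% of the control, and had rank 2029 from the lowest difference among the 10708 genes. The reference genes ACTB and GAPDH, which encode actin and a glycolytic enzyme, stood at 84.1% and 80.7% of the control. VIRMA lay between them. By RT-qPCR and western blot, the paper reports significantly less KIAA1429 mRNA and protein in its ACHN knockdown cells. Each difference below is log2(FPKM + 1) of the shKIAA1429 library minus log2(FPKM + 1) of the shNC library, and the added 1 shrinks the difference of weakly expressed genes. The median over all 10708 genes was 0.06, beside -0.22 for VIRMA, -0.25 for ACTB and -0.31 for GAPDH. The median shifted up by 0.18 when each library was rescaled to the same sum. Such rescaling raised the FPKM before the 1 was added, so the added 1 then weighed less. The mitochondrial genes took 42.2% of the summed FPKM with shNC and 34.6% with shKIAA1429. A difference a little below 0 can therefore change its sign with the scaling. All 8 renal epithelial markers checked were listed, with PAX8 at 64.7 and 104 FPKM, KRT18 at 67.4 and 78.6 FPKM and the lowest, CDH16, at 6.61 and 4.29 FPKM (shNC first). Of 6 fibroblast markers 2 were listed, COL1A1 and PDGFRB, with a summed level of 1.75 and 2.60 FPKM. Of 4 leukocyte markers only LYZ was listed, and PTPRC, CD3E and CD14 were not among the listed genes.

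The Hippo pathway is a kinase cascade that restrains growth. The kinases STK3 and STK4 (MST2 and MST1), held by the scaffold SAV1, activate LATS1 and LATS2, whose co-activators are MOB1A and MOB1B, and NF2 (merlin) brings LATS to the membrane. Active LATS phosphorylates YAP1 and WWTR1 (TAZ), which are then kept in the cytoplasm or degraded. Without that phosphorylation both enter the nucleus and drive transcription with the TEAD factors. In the kidney the pathway is best known through NF2, a tumour suppressor lost in some renal carcinomas.

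SAV1 and STK4, the scaffold and one of the kinases at the top of the cascade, were lower in the shKIAA1429 library. The other 8 genes were within 0.5 on the log2 scale. Among all genes 6.12% were lower and 9.92% higher by more than 0.5, so most genes were within 0.5 as well. SAV1 was at 5.47 FPKM with shNC and 0.203 FPKM with shKIAA1429. STK4 was at 4.61 and 1.44 FPKM. The log2 differences were -2.43 for SAV1 and -1.20 for STK4, and those of the other 8 lay between -0.03 and 0.46, with a median of 0.26. Of these 8, a total of 3 were higher by more than 0.5 when each library was rescaled to the same sum, LATS1 (0.72), STK3 (0.59) and WWTR1 (0.58). LATS1 was so also with a pseudocount of 0.1 FPKM (0.57) and after rescaling without the mitochondrial genes (0.56). Rescaling to the same sum also moved the median of all genes from 0.06 to 0.24. The share of all genes past 0.5 was not counted in these settings, so nothing is read from the 3. One of the 10 genes was lower by more than 1.5, the limit taken from the paper's methods, and 0 were higher by that much, beside 0.252% lower and 0.392% higher among all genes. Past a limit of 1, a total of 2 of the 10 were lower, beside 0.897% of all genes. These counts describe the choice of genes and carry no weight of their own.

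**Figure D1:**
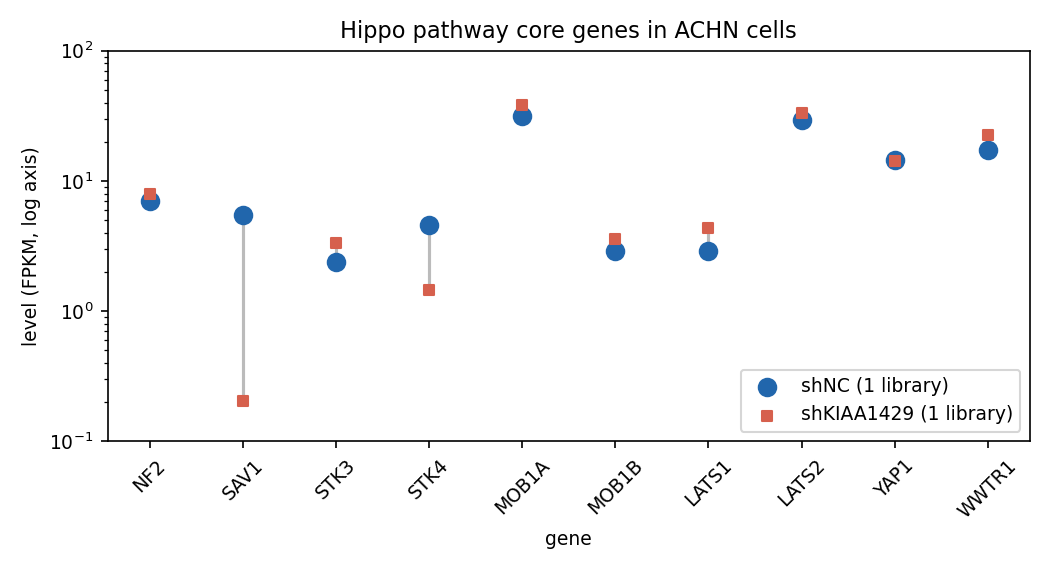
Level of each Hippo core gene in FPKM on a log axis, with circles for the shNC library and squares for the shKIAA1429 library, 1 library each, and a grey line joining them. SAV1 (5.47 and 0.203 FPKM) and STK4 (4.61 and 1.44 FPKM) have the longest lines, and the symbols of YAP1 lie on each other.

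SAV1 (ENSG00000151748.14_3) encodes the WW domain scaffold that binds the MST kinases through a SARAH domain. Its locus is the minus strand of chromosome 14, bases 51098776 to 51135049 of GRCh37. The level with shKIAA1429 was 3.71% of that with shNC. Its difference had rank 4 from the lowest among the 10708 genes and was the lowest of the 535 genes in its bin when all genes were divided into 20 bins by mean level. In the order of levels, SAV1 stood at the 48.6 percentile of these genes with shNC and at the 0.056 percentile with shKIAA1429. It passed the requirement of a mean of 1 FPKM through the shNC library alone, as its level with shKIAA1429 was below that. The requirement removes genes that are low in both libraries. The low percentile of SAV1 with shKIAA1429 thus follows from it and from the choice of SAV1, and nothing is read from it. A pseudocount of 0.1 FPKM in place of 1 gave -4.20, the farthest of the alternatives tried. With a mean of at least 5 FPKM required, SAV1 was left out.

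**Figure D2:**
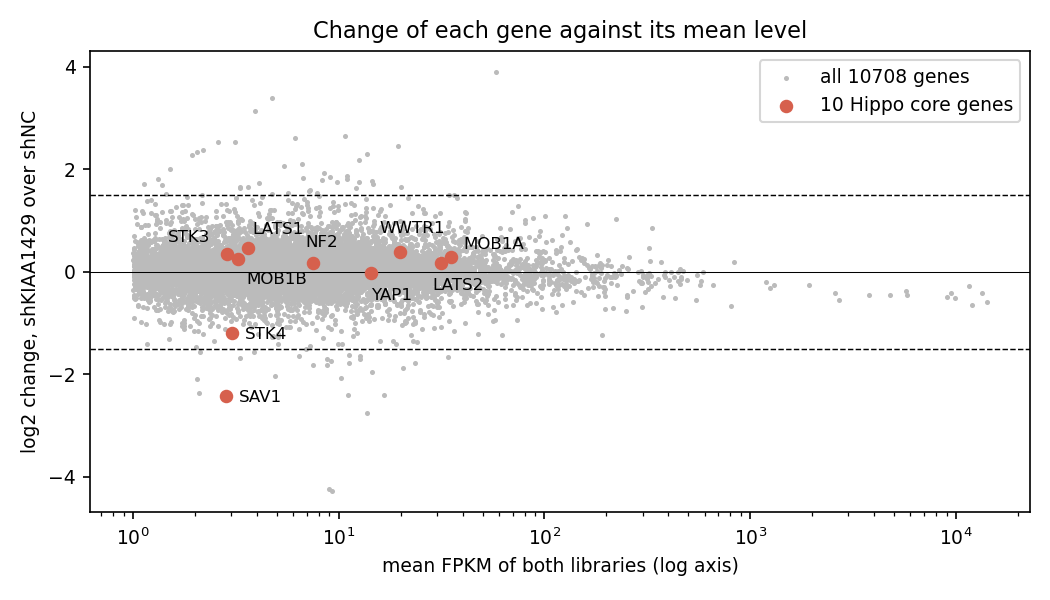
Log2 difference between the shKIAA1429 and shNC libraries against the mean FPKM of both (log axis) for the 10708 genes in grey, with the 10 Hippo core genes in red and dashed lines at -1.5 and 1.5. SAV1, at -2.43, is the core gene past a dashed line, STK4 is at -1.20, and the other 8 lie within the dense part of the grey points.

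STK4 (ENSG00000101109.11_2), at bases 43595115 to 43708600 of chromosome 20 (GRCh37, plus strand), encodes MST1. Its level with shKIAA1429 was 31.3% of that with shNC, and its difference had rank 54 from the lowest. One of the 536 genes in its bin by mean level was lower. STK4 stayed within 1.5 on the scale used. It passed that limit with a pseudocount of 0.1 (-1.61) and after rescaling each library without the mitochondrial genes (-1.57). That rescaling raised the FPKM before the 1 was added, so it too lowered the weight of the added 1 and is not a separate check of STK4. Its relative STK3 (ENSG00000104375.15_3), which encodes MST2, was at 2.39 FPKM with shNC and 3.31 FPKM with shKIAA1429, a difference of 0.34. The kinases thus stood in the opposite order in the libraries. STK4 made up 65.8% of their summed FPKM with shNC and 30.4% with shKIAA1429. Summed, the kinases came to 7.00 and 4.75 FPKM, 67.9% of the control level and a difference of -0.48. Relative to this sum, SAV1 stood at 0.781 with shNC and at 0.0427 with shKIAA1429, both as ratios of FPKM.

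LATS2 and MOB1A were the most abundant forms at the next step, and their levels differed by less than 0.3 on the log2 scale. Rescaled to the same sum, they differed by 0.36 and 0.47. The kinase gene LATS2 was at 29.4 FPKM with shNC and 33.3 FPKM with shKIAA1429, a difference of 0.17. LATS1 was at 2.89 and 4.35 FPKM, a difference of 0.46, the highest of the core genes. Both LATS genes together came to 32.3 and 37.6 FPKM, to which LATS2 gave 91.1% and 88.4%. MOB1A, which encodes a LATS co-activator, was at 31.5 and 38.5 FPKM, a difference of 0.28. MOB1B, which encodes the other, was at 2.89 and 3.60 FPKM, a difference of 0.24, and MOB1A made up 91.6% of their sum with shNC and 91.5% with shKIAA1429. Unlike the MST kinases, the LATS and MOB1 genes kept the same order in both libraries. MOB1B overlaps DCK on the same strand, a listed gene at 5.87 and 4.87 FPKM, so its value depends on how reads were divided between them. Values within each pair of related genes depend likewise on how reads that match both were assigned.

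**Figure D3:**
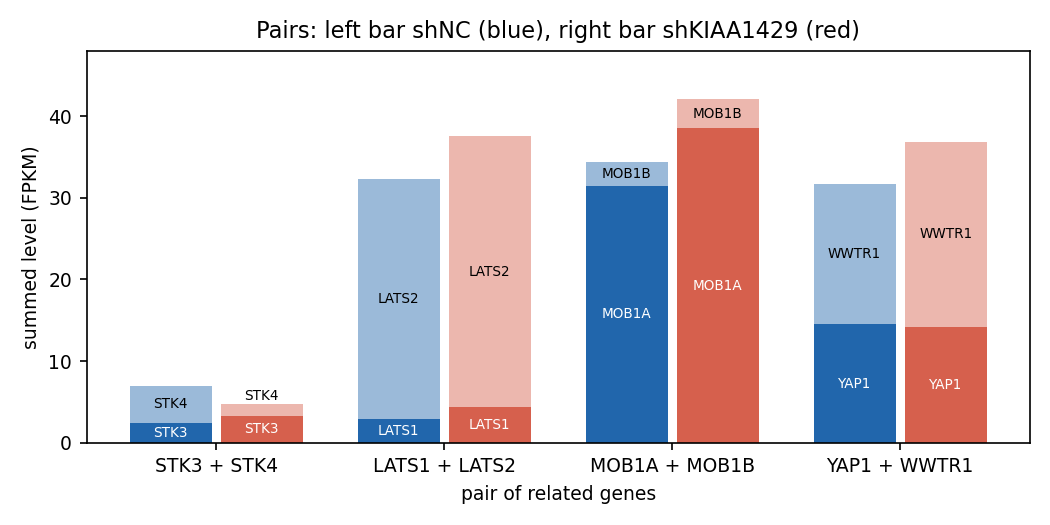
Summed FPKM of 4 pairs of related genes, in blue for the shNC library and in red for the shKIAA1429 library, with the first gene of each pair as the dark lower part and the second as the light upper part. The STK3 and STK4 bar is lower with shKIAA1429 (7.00 and 4.75 FPKM), and the other 3 bars are higher.

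NF2, the membrane scaffold, was at 7.04 FPKM with shNC and 8.00 FPKM with shKIAA1429, a difference of 0.16. YAP1, the co-activator at the end of the cascade, was at 14.5 and 14.2 FPKM, a difference of -0.03 that became 0.15 when each library was rescaled. WWTR1, which encodes its relative TAZ, was at 17.2 and 22.7 FPKM, a difference of 0.38. WWTR1 thus made up 54.2% of the sum of both effectors with shNC and 61.6% with shKIAA1429. The sum itself was 31.7 and 36.9 FPKM. Set against the summed LATS kinases, the effectors were at a ratio of 0.979 with shNC and 0.981 with shKIAA1429. In the shNC library the order of levels ran from MOB1A over LATS2, WWTR1, YAP1, NF2, SAV1, STK4, LATS1 and MOB1B to STK3. Without replicates it cannot be said which neighbours in this order differ.

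The core genes lie on 10 chromosomes, and 1 of them, MOB1B, overlaps another listed gene on the same strand. SAV1 overlaps the 3′ end of ATL1, on the opposite strand, by 1011 bases, and the libraries were made with a kit that marks the strand. The longest coding transcript of SAV1 in GENCODE 29 has 3063 bases and 42.8% GC, close to the median length of 3368 bases over all genes and below their median GC content of 48.5%. That of STK4 has 6342 bases and 43.4% GC. The sequence GGACT, a frequent context of m6A, was counted on the transcript strand. It occurs 3 times in the SAV1 transcript and 4 times in that of STK4, or 0.979 and 0.631 times per kilobase, beside a median of 0.927 over all genes. MOB1A and MOB1B have 0.409 and 0.287 per kilobase, and 92.1% of all genes have at least 1 such sequence.

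Within 500 kb of SAV1 the values of 7 other listed genes are reported, of which 6 had a mean of at least 1 FPKM. Of these 6, a total of 5 were lower with shKIAA1429 and 1 was higher, with a median difference of -0.23. The 346 genes of chromosome 14 had a median of 0.04, and 42.7% of all genes were lower. The nearest gene without an overlap, NIN, lies 51.4 kb away and was at 2.27 and 1.62 FPKM, and ATL1 was at 1.36 and 0.935 FPKM. TRIM9 was at 2.30 and 1.42 FPKM, PYGL at 42.6 and 37.7 FPKM, SOS2 at 4.43 and 4.24 FPKM and ATP5S, below a mean of 1 FPKM, at 0.784 and 0.563 FPKM. The gene that was higher was MAP4K5, itself a kinase that can activate LATS, at 4.52 and 5.68 FPKM. Around STK4, a neighbourhood examined after its values were seen, 8 of 13 genes were lower, with a median of -0.17. Among them was YWHAB, 57.9 kb from STK4. SLPI, with a mean below 1 FPKM, was at 1.60 FPKM in the control and is listed at 0 with shKIAA1429. SYS1-DBNDD2, also below that mean, went the other way, from 0 with shNC to 1.08 FPKM with shKIAA1429. TTPAL, below it too, was at 0.655 and 0.523 FPKM.

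**Figure D4:**
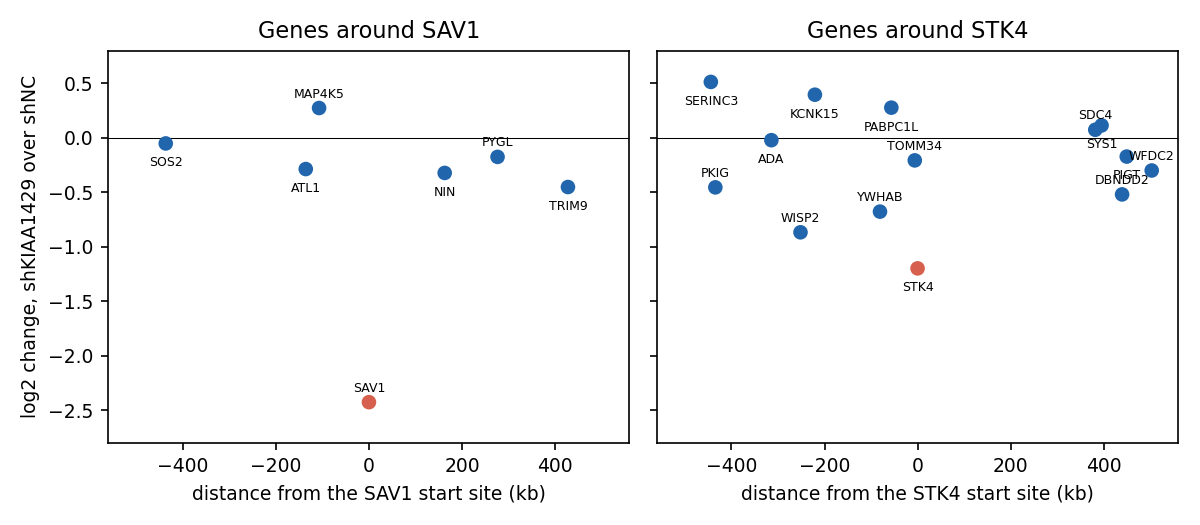
Log2 difference between the shKIAA1429 and shNC libraries of the reported genes with a mean of at least 1 FPKM within 500 kb of SAV1 (left) and STK4 (right), against the distance of each start site in kb. SAV1 (-2.43) and STK4 (-1.20), in red, lie below the neighbours plotted in blue.

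The 5 genes nearest to SAV1 in both libraries, by Euclidean distance of log2(FPKM + 1) over the 2 libraries, were LYZ, SMIM3, DAG1, DHRS13 and CDC42SE2. LYZ, which encodes lysozyme, was nearest, at a distance of 0.40, with 3.93 FPKM for shNC and 0.154 FPKM for shKIAA1429. It is also the leukocyte marker named above, and whether other cells had a part in the levels of LYZ or SAV1 was not tested. SMIM3, at 4.18 FPKM in the control, is listed at 0 in the shKIAA1429 library. It overlaps another listed gene on its strand. DAG1, which encodes dystroglycan, was at 3.65 and 0.561 FPKM, and DHRS13 was at 3.43 and 0.611 FPKM. The farthest of the 5, CDC42SE2, was at a distance of 0.76, with 5.58 and 1.04 FPKM.

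The pathway was followed further in lists of 99 symbols by role, of which 92 were listed and 88 had a mean of at least 1 FPKM. The core gene LATS2 is counted among them as a target. Past 0.5 in either direction were 14 of these, or 15.9%, beside 16.0% of all genes. Higher with shKIAA1429 were 61.4% of them, beside 57.3% of all genes. Both shares are near those of all genes. By more than 1.5, a total of 2 were higher, PTPN14 and IGFBP3, which is 2.27% beside 0.392% of all genes, and 0 were lower, beside 0.252%. The lists were chosen with earlier results of these data known, and nothing is read from that count.

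Among the 9 listed TAO and MAP4K kinases, which activate MST or LATS, 0 were past 0.5, beside 16.0% of all genes. Their median was 0.17. The largest differences were those of MAP4K3 (10.7 and 13.8 FPKM), TAOK1 (9.23 and 11.5 FPKM) and MAP4K5. The RASSF proteins bind MST kinases through the SARAH domain that SAV1 also has. Of these, RASSF6 was at 1.33 FPKM with shNC and 4.38 FPKM with shKIAA1429, a difference of 1.20 that became 1.64 with a pseudocount of 0.1. RASSF2 was at 4.32 and 3.05 FPKM (-0.39) and RASSF1 at 1.77 and 2.45 FPKM (0.32). Thus 1 of the 4 RASSF genes with a mean of at least 1 FPKM was past 0.5, beside 16.0% of all genes. With 4 genes nothing is read from that count.

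Of 19 membrane and junction genes, 2 were higher and 1 was lower by more than 0.5, with a median of 0.13. Together these were 15.8%, near the 16.0% of all genes. PTPN14, a phosphatase that binds YAP1, was at 6.03 FPKM with shNC and 23.0 FPKM with shKIAA1429, a difference of 1.77. The FERM domain gene FRMD6 was at 4.57 and 8.05 FPKM (0.70). CRB3, a polarity protein of the apical membrane, was at 9.19 and 5.99 FPKM (-0.54), and at -0.42 after rescaling to the same sum. Of 16 genes that restrain the kinases, 12.5% were past 0.5. SLMAP of the STRIPAK phosphatase complex was higher (3.42 and 5.35 FPKM, 0.52). STRN4 of the same complex was lower (10.2 and 6.34 FPKM, -0.61), and was at -0.49 after rescaling to the same sum. STRN was at 4.42 and 5.97 FPKM (0.36). The NDR kinase gene STK38, a relative of LATS, was at 21.3 and 31.4 FPKM (0.54). The other 3 genes of its list with a mean of at least 1 FPKM were within 0.5, a list too short to set beside all genes. Among these, MOB2 was at 1.70 and 2.58 FPKM (0.41) and MOB3A at 8.65 and 7.16 FPKM (-0.24).

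The 11 genes of YAP retention and turnover had a median of -0.08, which became 0.10 after rescaling. YWHAB, a 14-3-3 protein gene, was lower at 35.4 and 21.8 FPKM (-0.68), and the other 10 were within 0.5. Past 0.5 were thus 9.09% of this list, beside 16.0% of all genes. The 14-3-3 gene SFN was at 1.58 and 1.23 FPKM, and BTRC and FBXW11, which encode subunits of ubiquitin ligases, were at 4.85 and 5.75 FPKM and at 7.52 and 6.38 FPKM. Among the 5 listed nuclear partners, TEAD4 was the most abundant, at 35.5 and 30.2 FPKM. TEAD3 was higher at 6.65 and 10.3 FPKM (0.57), VGLL4, which competes with YAP1 for TEAD, was at 8.44 and 11.5 FPKM (0.41), and TEAD2 was at 7.91 and 6.20 FPKM (-0.31).

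**Figure D5:**
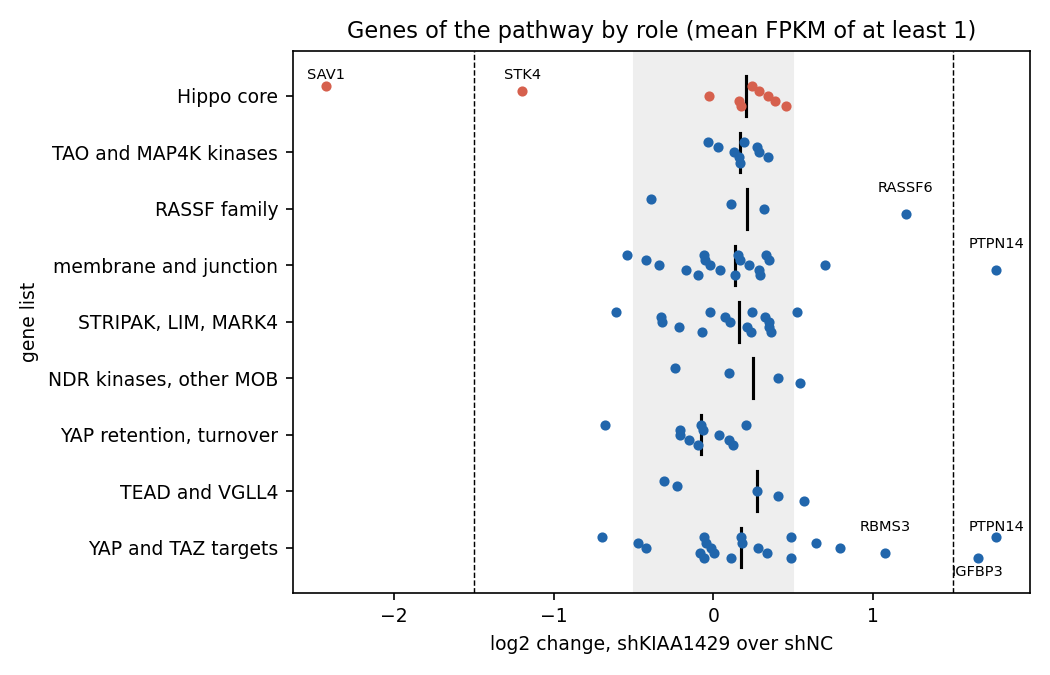
Log2 difference between the shKIAA1429 and shNC libraries of each gene with a mean of at least 1 FPKM, by role in the pathway, with black bars at the median of each list, grey shading from -0.5 to 0.5 and dashed lines at -1.5 and 1.5. SAV1 and STK4 lie to the left of the other genes of the pathway, and PTPN14 (1.77), shown in both of its lists, and IGFBP3 (1.66) lie past the right line.

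The YAP and TAZ target list held 22 genes known to be driven through TEAD factors, of which 21 had a mean of at least 1 FPKM. Sequences of these genes are shown because TEAD factors bind GGAATG. RefSeq promoters on GRCh38.p14, from 250 bases before to 50 after the start, were searched for 15 of the 21 targets. Of these 15, a total of 9 held GGAATG or CATTCC, its form on the other strand. The share was 14.8% among the 8459 promoters of genes with a mean of at least 1 FPKM. For targets and core genes the search left out 1 chromosome, and with it DOCK5, ASAP1 and the core gene STK3. The 8459 promoters were not limited in this way, so the shares come from unlike sets. The other targets that were not searched had no promoter of 300 bases under their symbol. The targets were listed as driven through TEAD factors. A larger share was therefore likely from the choice of genes, and nothing is read from it. A match describes the letters and is not a shown binding site. For each of the 9, a window around 1 match is shown on the gene's strand, 5′ to 3′, with the match in capitals. CCN2, ANKRD1 and NUAK2 held further matches.
CCN2, chr6:131951526-131951551, minus strand: ttcagacggaGGAATGctgagtgtca
ANKRD1, chr10:90921200-90921225, minus strand: cactgagtctGGAATGaaaattcacc
AMOTL2, chr3:134374501-134374526, minus strand: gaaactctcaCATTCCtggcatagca
LATS2, chr13:21061562-21061587, minus strand: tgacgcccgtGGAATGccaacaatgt
PTPN14, chr1:214551787-214551812, minus strand: tcccgggccgCATTCCtccccgcccc
TGFB2, chr1:218345141-218345166, plus strand: tcagggcgcaCATTCCacctccttcc
NUAK2, chr1:205321748-205321773, minus strand: ataacaacttGGAATGctgtgcttta
AXL, chr19:41226533-41226558, plus strand: gactttgcacCATTCCactccctccg
FOXF2, chr6:1389370-1389395, plus strand: ggccgcgagaGGAATGaagagcgagg
Of the 9 core genes searched, 2 held the motif, LATS2 and YAP1.
YAP1, chr11:102110275-102110300, plus strand: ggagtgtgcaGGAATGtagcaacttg

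Of the 21 targets, 5 were higher and 1 was lower by more than 0.5, with a median of 0.17, beside 9.92% higher and 6.12% lower among all genes. One of the 5, RBMS3, passed the mean of 1 FPKM through the shKIAA1429 library alone, so its place among the higher targets follows from that requirement. CCN2, a secreted matricellular protein listed as CTGF, was at 100 FPKM with shNC and 141 FPKM with shKIAA1429 (0.49). CCN1, its relative listed as CYR61, was at 286 FPKM in both libraries, a difference that became 0.18 after rescaling to the same sum. ANKRD1, an ankyrin repeat cofactor, was at 2.45 and 4.38 FPKM (0.64), and AMOTL2, an angiomotin that restrains YAP1, was at 36.6 and 51.8 FPKM (0.49). After rescaling to the same sum, CCN2 was at 0.67 and AMOTL2 at 0.68, both past 0.5. The median of all genes was then 0.24. The LATS2 gene, a core member that is itself a target, differed by 0.17.

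Apart from PTPN14 and ANKRD1, the targets higher by more than 0.5 were IGFBP3, NT5E and RBMS3. IGFBP3, an IGF binding protein, was at 9.13 FPKM with shNC and 30.9 FPKM with shKIAA1429 (1.66). NT5E, the ectonucleotidase CD73, was at 18.9 and 33.4 FPKM (0.79). RBMS3, an RNA-binding protein, was at 0.719 and 2.62 FPKM (1.08), and became 1.73 with a pseudocount of 0.1. CCDC80, an extracellular matrix protein, was the target lower by more than 0.5, at 19.5 and 11.6 FPKM (-0.70). The remaining 15 targets, CCN2 and AMOTL2 among them, were within 0.5 on the scale used. They also held the receptor tyrosine kinase AXL at 56.7 and 54.4 FPKM and the cytokine TGFB2 at 17.2 and 12.1 FPKM (-0.47). The kinase NUAK2 was at 26.5 and 25.0 FPKM and the forkhead factor FOXF2 at 3.01 and 4.07 FPKM (0.34). The membrane repair protein MYOF was at 169 and 183 FPKM.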

How the data were processed

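The authors deposited FPKM values per gene for 1 library of each group. The submitters' processing notes name cutadapt 1.9, HISAT2 2.0.4, StringTie 1.3.4d, DESeq2 and edgeR, without roles. The genome build is not given in the sources used here, and the positions are those of GENCODE genes on GRCh37. Each of the 12014 genes is above 0.5 FPKM in at least 1 library. FPKM keeps no read count and no counts were recovered from it, so the depth is unknown and no interval or floor is given.

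From the deposited FPKM, log2 differences with a pseudocount of 1 FPKM were computed for genes with a mean of at least 1 FPKM. No count test could be run on FPKM from 1 library per group. The members and the gene lists were chosen with earlier results of these data known. Named genes were the members, list genes past 0.5 or, where fewer than 3, the 3 with the largest difference, the 5 genes nearest to SAV1, its neighbours within 500 kb, and VIRMA. CCN2, CCN1, AMOTL2, AXL, MYOF, TEAD4, SLPI, SYS1-DBNDD2, TTPAL and the place of YWHAB beside STK4 were added after the values were seen. Length and GGACT counts were taken from the longest coding transcript of GENCODE 29, matched for 10648 genes (99.4%), and promoters from RefSeq. One neighbour of SAV1 and 1 leukocyte marker are not reported here. The steps were tested on simulated data. Python 3.11.15, NumPy 2.4.6, pandas 2.3.3 and matplotlib 3.10.9 were used.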

Additional observations from a re-analysis of the deposited data

How the results depend on the processing

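No paired analysis was possible because each group is a lone library, so no replicate could be left out either. Across 8 alternatives the difference of SAV1 lay between -4.20 and -2.43 wherever it had a value. With a mean of at least 5 FPKM required, 5 of the 10 core genes were left out, SAV1 and STK4 among them. The core genes past 1.5 were 1 on the scale used, 2 after lowering the pseudocount to 0.1 or the limit to 1 and after rescaling without mitochondrial genes, and 0 with a mean of at least 5 FPKM, by its construction. Of the core genes 1 changed its sign, YAP1, at 0.15 after rescaling to a sum of 1000000. That setting also turned the median of the YAP retention and turnover list to 0.10. The pathway genes past 1.5 were 2, and 4 after either rescaling, at a limit of 1 or if 0.1 was the pseudocount, where RASSF6 and RBMS3, the latter below 1 FPKM with shNC, joined PTPN14 and IGFBP3. Among all genes, 42 were higher and 27 lower. A pseudocount of 0.1 gave 114 and 60, a limit of 1 gave 174 and 96, and rescaling without mitochondrial genes gave 109 and 57. Rescaling to a sum of 1000000 gave 135 higher and 32 lower genes. A mean of at least 5 FPKM left 24 higher genes and leaving out overlapping genes left 26, since fewer genes were counted. The listed FPKM summed to 283046 with shNC and 249409 with shKIAA1429. Both rescalings to 1000000 therefore raised the FPKM before the 1 was added and lowered the weight of that 1. They are thus not independent of the change in pseudocount. Apart from these counts and that step, the cause of the changes was not tested.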
